A study of Mus musculus with 4 samples.

Results

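The transcription factor SCL (gene symbol Tal1) was mapped by chromatin immunoprecipitation and sequencing (ChIP-seq) in FLK1+ mesoderm, and its binding is described here at 10 genes that encode endothelial receptors and junction proteins: Kdr, Flt1, Flt4, Tek, Tie1, Cdh5, Pecam1, Esam, Emcn and Cd34. A peak was given to a gene when its summit, the base with the most fragments, was nearer to a transcription start site (TSS) of that gene than to a TSS of any other protein-coding gene. By this rule 37 of 12885 peaks belonged to the 10 genes, and none of the 37 was equally near to another gene. The study asked where SCL binds in cells that are about to take a blood fate. Wild-type mouse embryonic stem (ES) cells of the J1 line, with the background given as C57Bl/6 X Sv129, were differentiated as embryoid bodies. FLK1+ cells were isolated at day 3.5. There were 2 libraries made with an in-house SCL rabbit antiserum and 2 input libraries made without antibody, labelled as 2 replicates. FLK1 is the protein made by Kdr, so the cells had been selected for the product of a gene described here. A peak list holds no expression, so the cell type label was not checked against marker genes. The authors merged the libraries before they called peaks, and no value below has a replicate error.

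Endothelial cells line blood vessels and arise from FLK1+ mesoderm, which also gives rise to blood. They read vascular growth factors through receptor tyrosine kinases of the VEGF receptor and TIE families, and hold to each other through adherens and tight junction proteins. SCL is a basic helix-loop-helix protein needed for blood formation. It pairs with E-proteins on the E-box sequence CANNTG and often works in a complex with LMO2, LDB1 and a GATA factor, for which the usual DNA pattern is CTG followed at a short distance by GATA. ETS family proteins, which recognise AGGAA, are the best known regulators of endothelial genes.

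The DNA under the summits shows how varied these sites were. The windows below extend 50 bp to either side of each summit and are written on the plus strand of mm9, whichever strand the gene is on. Each is named by its distance from the start of the gene's longest coding transcript, with a minus sign for upstream. Capitals mark GATA sequences (AGATAA or AGATAG, or either with T as its leading base, on either strand), E-boxes, and the CTG and GATA of a composite, in which 7 to 9 bases lie between CTG and GATA. AGGAA is not marked. The receptor genes come first, with the strongest peak of each and others that carry a composite. The coordinates of these windows are chr5:76358353-76358453 and chr5:76296514-76296614 for Kdr, chr5:148469579-148469679 for Flt1, chr11:49427209-49427309 for Flt4, and chr4:94405995-94406095 and chr4:94404748-94404848 for Tek.
Kdr +16.1 kb: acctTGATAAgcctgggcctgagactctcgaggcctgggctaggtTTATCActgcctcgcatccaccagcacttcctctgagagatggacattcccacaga
Kdr +77.9 kb: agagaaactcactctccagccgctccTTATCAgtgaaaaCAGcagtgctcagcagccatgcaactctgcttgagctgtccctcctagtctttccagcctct
Flt1 +68.0 kb: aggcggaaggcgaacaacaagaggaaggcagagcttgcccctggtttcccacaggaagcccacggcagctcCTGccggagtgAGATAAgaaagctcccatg
Flt4 +4.5 kb: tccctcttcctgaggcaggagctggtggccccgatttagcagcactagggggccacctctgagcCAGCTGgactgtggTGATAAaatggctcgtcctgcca
Tek +54 bp: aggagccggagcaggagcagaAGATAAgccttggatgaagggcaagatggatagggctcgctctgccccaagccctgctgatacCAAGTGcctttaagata
Tek −1.2 kb: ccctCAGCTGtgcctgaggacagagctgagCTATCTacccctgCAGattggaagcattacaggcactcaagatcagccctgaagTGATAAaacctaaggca

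The junction and sialomucin genes follow, with the strongest peak of Cdh5, Esam, Emcn and Cd34, and the Cd34 peak that holds a composite. Their coordinates are chr8:106623372-106623472 for Cdh5, chr9:37337890-37337990 for Esam, chr3:136880336-136880436 for Emcn, and chr1:196754145-196754245 and chr1:196752346-196752446 for Cd34.
Cdh5 −2.1 kb: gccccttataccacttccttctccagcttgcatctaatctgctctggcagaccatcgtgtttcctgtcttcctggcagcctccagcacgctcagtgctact
Esam +2.3 kb: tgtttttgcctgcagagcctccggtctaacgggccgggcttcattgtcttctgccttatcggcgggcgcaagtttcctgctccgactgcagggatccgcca
Emcn −123.6 kb: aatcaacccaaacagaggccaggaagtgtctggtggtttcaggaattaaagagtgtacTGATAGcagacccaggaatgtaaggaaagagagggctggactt
Cd34 −10.8 kb: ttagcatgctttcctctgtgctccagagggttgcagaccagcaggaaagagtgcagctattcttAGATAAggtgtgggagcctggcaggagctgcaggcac
Cd34 −12.6 kb: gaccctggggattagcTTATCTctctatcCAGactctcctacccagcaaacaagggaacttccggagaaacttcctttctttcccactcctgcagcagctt

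Of the 10 genes, 9 had at least 1 peak, against 29.1% of the 22225 protein-coding genes. The 10 were chosen with earlier results of these data known, so such comparisons with all genes are descriptive only. Kdr and Cdh5 had 10 peaks each, Flt1 6, Tek 5, Cd34 2, and Flt4, Pecam1, Esam and Emcn 1 each, while Tie1 had none. Of all protein-coding genes, 2.12% had 5 or more peaks, as did 4 of the 10, and 0.247% had 10 or more, as did Kdr and Cdh5. A gene that stands far from its neighbours collects more peaks under this rule. The stretch of genome nearest to a gene, called its territory below, had a median of 144.9 kb in the 10 genes and 45.7 kb in all genes. Of the 4165 genes with a territory of at least 144.9 kb, 62.5% had a peak. The 10 territories together held 1.90 peaks per 100 kb, against 0.485 over all territories.

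The strength of a peak is given as fold enrichment, which the authors' caller computes at the summit as ChIP fragments relative to background. Intervals in parentheses after a fold come from the number of fragments, are exact Poisson 95% confidence intervals, and cover counting error only. The median fold of the 37 peaks was 11.6 (95% confidence interval of the median 8.15 to 19.3) and that of all 12885 peaks was 11.1. Folds ran from 4.99 to 182.8, with quartiles of 7.52 and 25.3. Of the 37, 22 (59.5%) had a fold of at least 10, against 56.6% of all peaks. The genes differed in this, as 1 of the 10 Cdh5 peaks reached a fold of 10 and 21 of the 27 others (77.8%), with median folds of 7.14 and 15.9. In the top 5% of the list, which began at a fold of 61.1, were 3 of the 37 peaks, where the list has 5.01%. They belonged to Kdr and Flt1. By gene, 2 of the 9 genes with a peak had their strongest peak in that top 5%, against 9.01% of the 6458 genes with a peak.

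**Figure D1:**
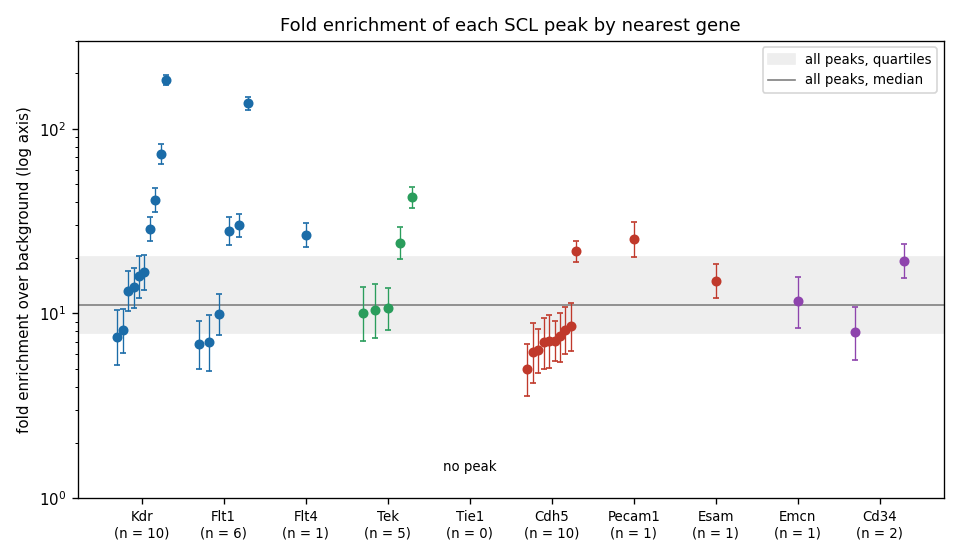
Fold enrichment over background (log axis) of each of the 37 peaks, by gene, with bars for the Poisson 95% interval of the fragment count. The band marks the quartiles of all 12885 peaks and the line their median of 11.1. The strongest peaks of Kdr (182.8) and Flt1 (137.3) lie far above the band, 9 of the 10 Cdh5 peaks lie below a fold of 10, and Tie1 has no peak.

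The 3 VEGF receptor genes held 17 of the 37 peaks, with a median fold of 16.8 and a range of 6.80 to 182.8. Of the 17, 12 had a fold of at least 10. None lay within 1 kb of a TSS.

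Kdr encodes VEGFR2, the main signalling receptor for VEGFA, known as FLK1 in the mouse. The gene lies on the minus strand of chromosome 5, at chr5:76328852-76374483, and its 10 peaks spanned 166.9 kb. The strongest peak, at chr5:76358176-76358882, was 16.1 kb inside the gene in intron 10, and its summit was also covered by exon 10 of a retained-intron transcript. It had a fold of 182.8 (171.9 to 194.2) with 1044 fragments on a background of 4.72, and ranked 33 in the whole list. It lay under a pair of GATA sequences, but its window held neither an E-box nor a composite. The next strongest, at chr5:76296199-76296854, was downstream of the gene at +77.9 kb. It had a fold of 73.0 (64.7 to 82.2) with 273 fragments, ranked 462, and held a composite with 8 bases between CTG and GATA. The interval of the intronic peak did not overlap that of any other Kdr peak.

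The other Kdr peaks formed a weaker series upstream of the gene. Going outwards from the start, folds were 28.7 at −26.5 kb, 13.3 at −30.3 kb, 13.9 at −34.7 kb, 15.9 at −45.1 kb, 7.50 at −62.3 kb, 16.8 at −85.3 kb and 41.3 (35.3 to 47.9) at −89.0 kb. A peak with a fold of 8.13 lay downstream at +48.2 kb. The peak nearest to a Kdr TSS was therefore the intronic one, and no peak was called at the Kdr promoter. The first 4 of the upstream peaks stood close together, over 18.6 kb between the outermost summits with no step above 15 kb. The peaks at −26.5 and −30.3 kb both held a composite, again with 8 bases. The outermost pair at −85.3 and −89.0 kb lay in a large intergenic stretch and were less surely placed, since the start of Srd5a3 was only 1.29 and 1.19 times as far away.

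Kdr ranked high in the genome by both number and strength. Only 35 protein-coding genes had more than 10, and 31 had a stronger best peak. Kdr stands alone in a territory of 263.8 kb, but of the 2234 genes with a territory at least as large, the median number of peaks was 1 and 45 had 10 or more. Its density of 3.79 peaks per 100 kb was the highest of the 10 genes. Esam followed with 3.44, Tek with 3.17, Flt1 with 2.67 and Flt4 with 2.01. Cdh5 had 1.53, Cd34 1.51, Pecam1 1.01 and Emcn 0.333. The values of Esam, Flt4, Pecam1 and Emcn rest on 1 peak each, that of Esam in a territory of 29.1 kb.

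**Figure D2:**
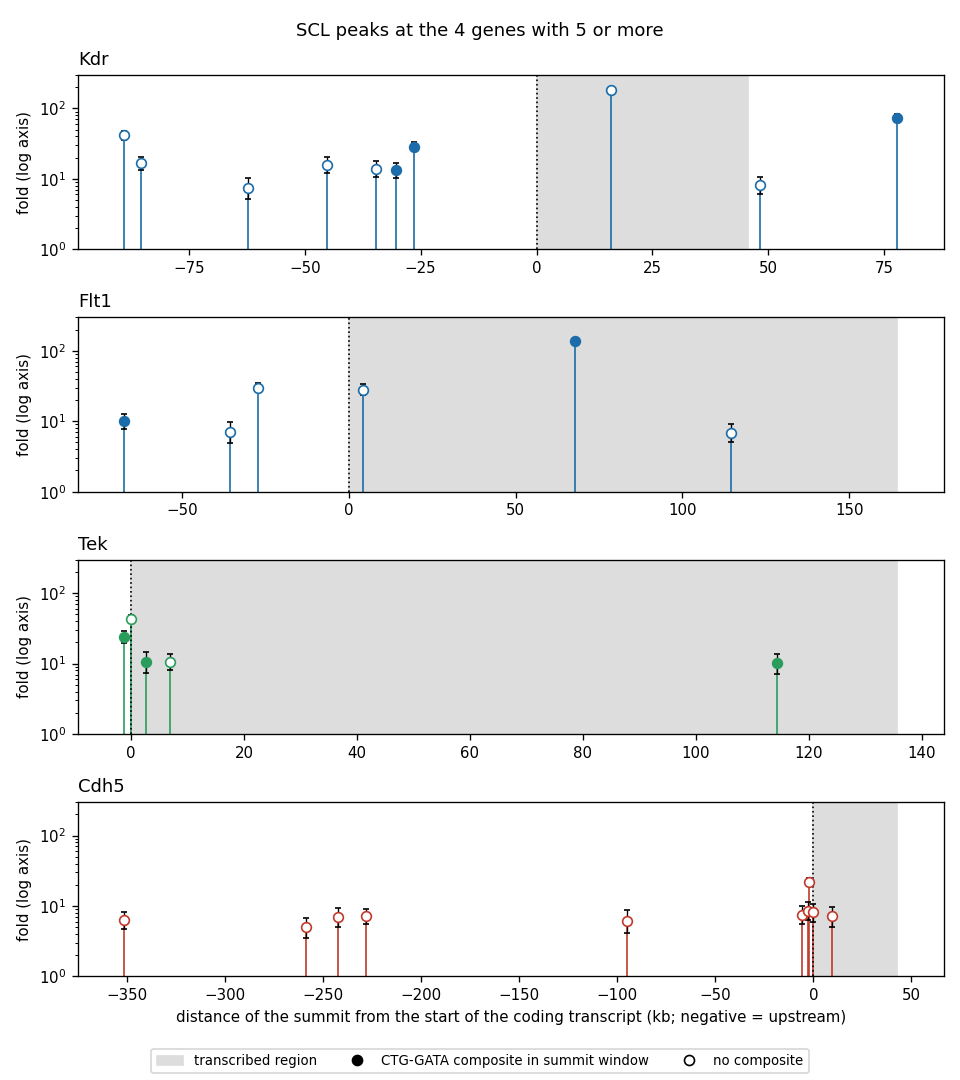
Peaks at the 4 genes with 5 or more, with the distance of the summit from the start of the longest coding transcript in kb (negative is upstream) and fold enrichment on a log axis. Filled circles have the CTG and GATA composite in the summit window, open circles do not, grey marks the transcribed region, and bars are Poisson 95% intervals. The strongest Kdr and Flt1 peaks lie inside the gene, 4 of the 5 Tek peaks gather at the start, and the Cdh5 peaks are all open circles.

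Flt1 encodes VEGFR1, a high-affinity VEGFA receptor with a soluble form that limits signalling through VEGFR2. Its strongest peak also lay deep inside the gene. The peak at chr5:148469457-148469894 was in intron 10 of Flt1, 68.0 kb from the start, with a fold of 137.3 (126.9 to 148.4) and 640 fragments. It ranked 92 in the list, and its composite had 9 bases between CTG and GATA. A noncoding transcript of Flt1 starts nearer, 23.6 kb from the summit. At +4.4 kb, in intron 1, a peak at chr5:148532965-148533421 had a fold of 28.1 (23.5 to 33.3), and upstream at −27.2 kb another had 29.99 (25.8 to 34.6). The intervals of these overlapped each other and were far below that of the strongest. Weaker peaks followed at −35.4 kb (7.01) and −67.3 kb (9.94). The last held a composite but was almost as near to Pomp, at 67349 bp against 67268 bp. The sixth, at +114.5 kb in intron 15, was the weakest with 6.80 and the narrowest of the 37 with 175 bp. It was nearest to a noncoding transcript of Flt1, and with TSSs of coding transcripts only it went to another gene. This peak is counted here by the rule, but its sequence makes it doubtful as a site bound by SCL.

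Flt4 encodes VEGFR3, the receptor for VEGFC and VEGFD on lymphatic and embryonic vessels. It had a single peak at chr11:49427017-49427451 in intron 1, 4.49 kb from the start, with a fold of 26.6 (22.9 to 30.8) and 179 fragments. The window held an E-box CAGCTG and a GATA sequence, and the CTG of the E-box and the GATA formed a composite with 9 bases between them. All 3 VEGF receptor genes thus had a peak inside the gene body with a fold over 20, and a composite in at least 1 window.

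Tek encodes TIE2, the receptor for angiopoietins. Its 5 peaks were arranged otherwise, as 4 of them lay within 8.15 kb around the start. The strongest, at chr4:94405721-94406340, was in exon 1, 54 bp from the start of the longest coding transcript, with a fold of 42.6 (37.2 to 48.6) and 220 fragments. A GATA sequence and an E-box CAAGTG lay in its window, without a composite. At −1.2 kb, at chr4:94404647-94405019, a peak with a fold of 24.1 (19.7 to 29.3) held a composite with 8 bases on the minus strand, an E-box CAGCTG and a pair of GATA sequences. It was just outside the 1 kb limit, 1182 bp from the nearest TSS. Inside intron 1 were peaks at +2.7 kb (10.5, 7.39 to 14.5) and +7.0 kb (10.7, 8.19 to 13.7), and in intron 15 a peak at +114.4 kb (10.1, 7.11 to 13.9). The intervals of these 3 overlapped one another, and those of the strongest and of the −1.2 kb peak overlapped no other Tek peak. Of the 5 Tek peaks, 3 had a composite and 4 a GATA sequence. The +114.4 kb peak, 1 of the 3, was nearest to a noncoding transcript of Tek that starts 48.8 kb away. With TSSs of coding transcripts only, or only the most 5′ TSS of each gene, it went to another gene.

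Tie1 encodes TIE1, a receptor with no well-defined ligand of its own that modulates TIE2, and was the only one of the 10 without a peak. The gene lies at chr4:118143796-118162666 on the minus strand, and its territory of 34.9 kb was smaller than those of all the others except Esam. Upstream, the nearest summit was 27.4 kb away, where a peak with a fold of 12.5 was nearer to 2610528J11Rik. A much stronger peak, with a fold of 97.2 (89.1 to 105.8) and 531 fragments at chr4:118241322-118241941, lay 78.9 kb upstream in an intron of Wdr65 and was nearer to Tmem125. With 10 kb on either side of the gene body as the rule, Tie1 had 1 peak. No peak here means that none was in the list, since levels below the authors' threshold are not given.

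The 3 junction genes had 12 peaks with a median fold of 7.33 and a range of 4.99 to 25.3. Only 3 of the 12 had a fold of at least 10, and 3 of the 12 lay within 1 kb of a TSS. Of the 12 windows, 11 held AGGAA, 9 of them at Cdh5, against 51.9% of all peaks. A GATA sequence was in 5, against 73.2%, and a composite in 1, against 32.9%.

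Cdh5 encodes VE-cadherin, the cadherin of endothelial adherens junctions. It had as many peaks as Kdr, but they were weak. The strongest, at chr8:106623148-106624030, was 2.1 kb upstream with a fold of 21.7 (19.1 to 24.7). It was the widest of the 37 peaks with 883 bp, and its 237 fragments stood on a background of 9.96, the highest of the 37. Its window held 3 copies of AGGAA but no GATA sequence, E-box or composite. The peak at the start itself, with its summit 64 bp upstream of the TSS, had a fold of 8.15 (6.01 to 10.8).

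Around the start of Cdh5, 5 peaks stood within 15.3 kb. Besides those above, they were at −5.8 kb (7.52), −2.8 kb (8.52) and +9.4 kb in intron 1 (7.13). The −2.8 kb and −2.1 kb summits were only 0.685 kb apart. The other 5 peaks were far upstream, at −94.9 kb (6.21), −227.9 kb (7.14), −242.2 kb (6.998), −258.4 kb (4.99) and −351.3 kb (6.32). Except for the −2.1 kb peak, the intervals of all Cdh5 peaks overlapped one another, so the order of these 9 was not resolved by their depth of 28 to 66 fragments.

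The far peaks of Cdh5 were placed by distance alone. Its territory was 652.3 kb, as the next protein-coding gene upstream, Gm8730, was 1236 kb away, and Bean1 lay 68.9 kb downstream. Local background was somewhat higher on this chromosome, with a median of 5.24 fragments over the 868 peaks of chromosome 8 against 3.67 over the whole list. The Cdh5 peaks had a median of 4.74. What part this background had in their low folds was not tested. None of the 10 held a composite, 5 held a GATA sequence, 5 an E-box, and 9 AGGAA.

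Pecam1 encodes the adhesion receptor CD31. Its single peak had a fold of 25.3 (20.3 to 31.2) with 86 fragments, the highest among the junction genes, though its interval overlapped that of the strongest Cdh5 peak. Its summit was 5 bp from an internal TSS, that of Pecam1-201, in exon 1 of another coding transcript, Pecam1-001, and 35.3 kb downstream of the start of the longest coding transcript. Esam encodes an immunoglobulin-like protein of endothelial tight junctions. Its peak, at chr9:37337632-37338186, had a fold of 15.1 (12.2 to 18.4) with 93 fragments and also lay at an internal TSS, 105 bp from that of Esam-003 in its exon 1, and 2.28 kb from the start of the longest coding transcript. Its window held 1 AGGAA and no GATA sequence, E-box or composite. Which of the alternative starts were used in these cells cannot be told from the peaks.

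Emcn and Cd34 encode mucin-like surface glycoproteins, endomucin of venous and capillary endothelium and CD34 of endothelial cells and blood progenitors. Both were bound only upstream. Emcn had 1 peak, at chr3:136880192-136880561, 123.6 kb from the start with a fold of 11.6 (8.37 to 15.8) and 39 fragments. Its window held a GATA sequence and 4 copies of AGGAA, the most of the 37. The territory of Emcn was 300.2 kb and its density the lowest of the 9 genes with a peak. Cd34 had a pair of peaks 1.80 kb apart. The one at −10.8 kb, at chr1:196753991-196754407, had a fold of 19.3 (15.5 to 23.9) and a GATA sequence. The one at −12.6 kb, at chr1:196752117-196752520, had a fold of 7.93 (5.62 to 10.9) and a composite with 8 bases. Their intervals did not overlap, and here the window with the composite was the weaker. With TSSs of coding transcripts only, Cd34 gained 2 further peaks, with folds of 9.60 and 6.998.

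**Figure D3:**
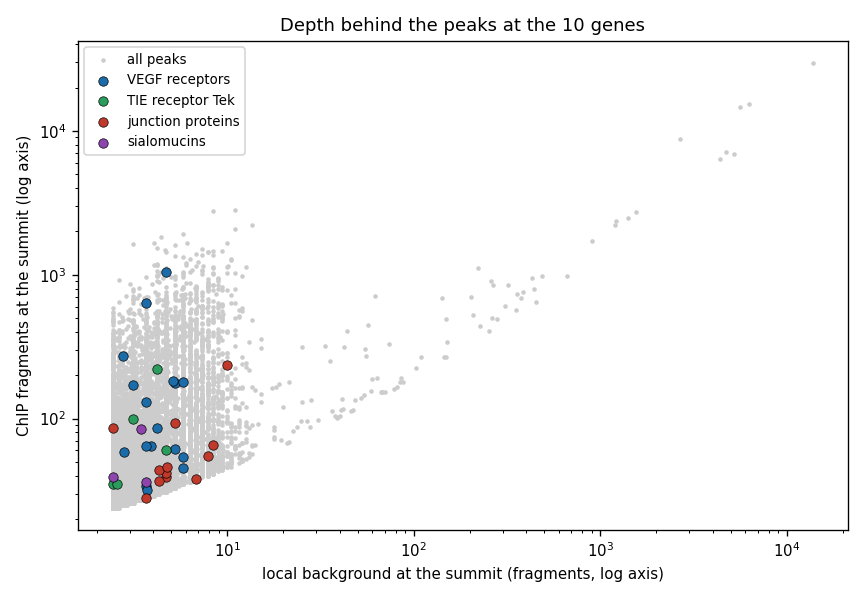
ChIP fragments at the summit against the local background, both on log axes, for all 12885 peaks in grey and the 37 peaks by role of the gene in colour. Most coloured points lie between 28 and 273 fragments on a background of 2.43 to 9.96. The exceptions are the Kdr peak with 1044 and the Flt1 peak with 640 fragments.

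Seen as a group, the 37 peaks were mostly distal. Within 1 kb of a TSS were 4, at Tek, Cdh5, Pecam1 and Esam (10.8%, Wilson 95% interval 4.29 to 24.7), against 7.59% of all peaks. With only the most 5′ TSS of each gene the share was 5.26%. Measured from the longest coding transcript, 23 were upstream of the gene, 12 inside it and 2 downstream. Of the 37, 25 (67.6%) were intergenic, against 54.1% of all peaks, 8 (21.6%) lay in introns, against 42.4%, and 4 (10.8%) in noncoding parts of exons or retained introns, against 2.25%. Distances above 50 kb from a TSS were found for 11 peaks (29.7%), of which 5 were at Cdh5, against 32.5% of all peaks. The peaks were of usual width, with a median of 420 bp against 397 bp, and none reached 900 bp, as 435 peaks of the list did. In runs of 4 or more summits with steps of at most 15 kb were 13 of the 37, at Kdr, Tek and Cdh5, against 7.08% of all peaks.

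A composite was found in 11 of the 37 windows (29.7%, 17.5 to 45.8), against 32.9% of all peaks. The VEGF receptor and TIE genes, with 22 of the 37 peaks, held 9 of the 11 (40.9% of their windows), and the others were at Pecam1 and Cd34. The gap was 8 bases in 6 windows and 9 bases in 5, and never 7, which 3.60% of all windows had. The 11 had a median fold of 24.1 (range 7.93 to 137.3) and the 26 without it 9.59 (4.99 to 182.8). All 10 Cdh5 peaks were among the 26, and without them the median of the other 16 was 15.5. Over the whole list the medians with and without a composite were 13.3 and 10.3. The ranges of the 11 and the 26 overlapped widely, and the strongest of the 37 peaks, in Kdr, had no composite.

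GATA sequences lay in 25 of the 37 windows (67.6%, 51.5 to 80.4), against 73.2% of all peaks, and E-boxes in 17 (45.9%, 31.0 to 61.6), against 52.6%. The E-box CAGCTG was in 5 (13.5%), against 14.1%. For each of these, and for the composite, the share of all peaks lay within the interval of the 37. AGGAA was in 25 windows (67.6%, 51.5 to 80.4), against 51.9%, with the list's share just inside the interval. Without the 10 Cdh5 windows it was in 16 of 27 (59.3%). CCAACC, the KLF and SP1 pattern, was in 1 window, at Kdr +48.2 kb, against 4.23% of all peaks.

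Windows with neither a GATA sequence, an E-box nor a composite numbered 9 (24.3%, 13.4 to 40.1), against 10.3% of all peaks, and this was the one motif share whose interval did not hold the value of the list. They were 3 at Cdh5, 2 each at Kdr and Flt1, and 1 each at Tek and Esam, with folds from 6.21 to 29.99. Among the Flt1 windows is that of the +114.5 kb peak, which is doubtful as a site bound by SCL. The set includes the strongest peaks of Cdh5 and Esam. No match says only that these letters are not within 50 bp of the summit. Several sites near a gene share its sequence neighbourhood, so the windows are not independent of each other.

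**Figure D4:**
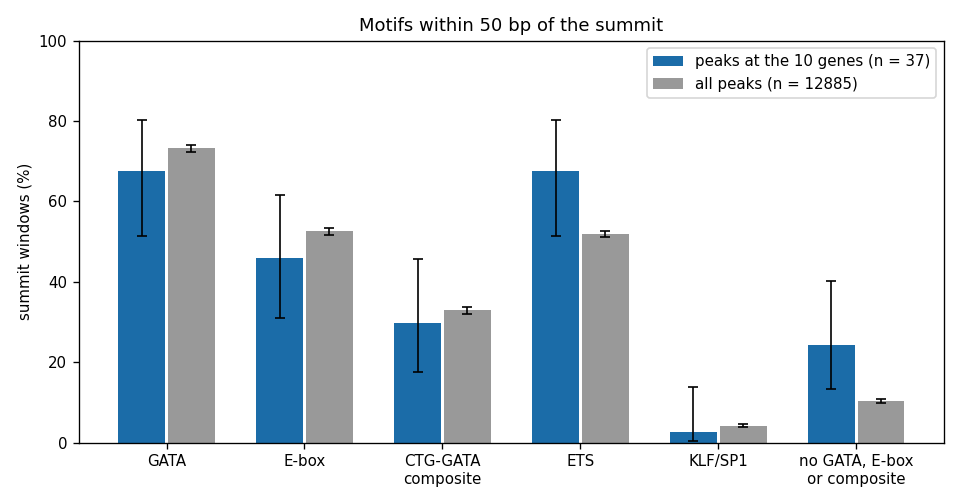
Share of summit windows (%) that hold each motif, for the 37 peaks of the 10 genes and for all 12885 peaks, with Wilson 95% intervals. The bars of the 37 are close to those of the list for GATA, E-box and composite, and AGGAA (ETS) is at 67.6% against 51.9%. Windows with none of GATA, E-box or composite make up 24.3% against 10.3%.

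Other genes of the same pathways often had a peak as well. Their lists too were chosen with earlier results of these data known, so the shares below are descriptive only. Of 46 genes for ligands, co-receptors, junction components and other endothelial surface or secreted proteins, 34 (73.9%) had a peak, 87 peaks in all. This compares with 29.1% of all protein-coding genes, and with 57.5% of the 5771 genes whose territory reached the 104.2 kb median of the 46. Per 100 kb of territory they had 1.30 peaks, between the 1.90 of the 10 genes and the 0.485 of all genes. Their strongest peak was in the top 5% of the list for 6 of the 34, at S1pr1, Podxl, Acvrl1, Ptprb, Egfl7 and Jam3, against 9.01% of all genes with a peak.

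Among VEGF and TIE ligands and co-receptors, 8 of 10 had a peak. Nrp2, a co-receptor for VEGF and semaphorins, had 8, the strongest with a fold of 45.1 at 521.5 kb from the TSS. Ptprb, the phosphatase VE-PTP that acts on TIE2 and VE-cadherin, had 5, the strongest with a fold of 86.3 (79.1 to 94.1) in a window with a composite. The strongest Vegfa peak had a fold of 25.4, and Vegfb and Figf had none. Of 15 junction genes, 11 had a peak, and the strongest was at Jam3, a junctional adhesion molecule, with 70.8 (63.5 to 78.7). Jam2, Jup, Gja1 and Gja5 had none.

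Of 21 other surface and secreted endothelial proteins, 15 had a peak. Podxl, a sialomucin related to CD34, had 8 with a highest fold of 91.9 (83.0 to 101.6), higher than either Cd34 peak, and the intervals did not overlap. S1pr1, a receptor for sphingosine 1-phosphate, had 5 with a highest fold of 100.3 (90.2 to 111.2). Acvrl1, a receptor kinase for BMP9, reached 90.1 (81.4 to 99.4) and Egfl7, a secreted vascular factor, 84.6 (77.6 to 92.1). Robo4, Mcam, Procr, Thbd, Sele and Ramp2 had none. The strongest peaks of Kdr and Flt1 exceeded those of all 46 genes.

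**Figure D5:**
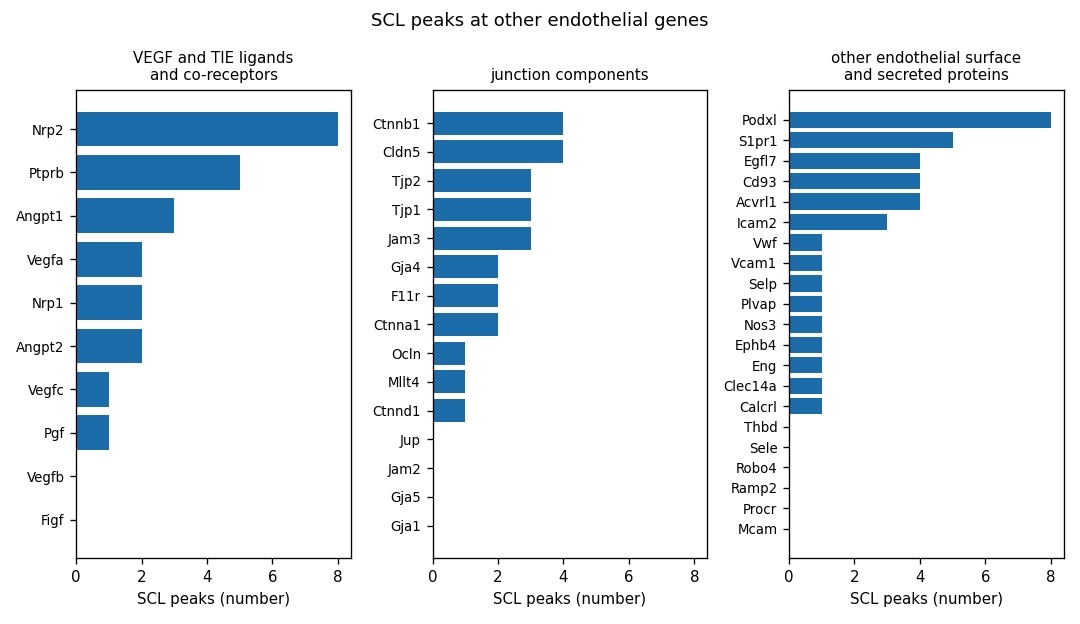
Number of SCL peaks at each of 46 other endothelial genes, in 3 lists, by the same rule of the nearest TSS. Nrp2 and Podxl have 8 peaks each, Ptprb and S1pr1 5 each, and 12 genes have none.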

How the data were processed

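ChIP-seq of SCL was analysed from a single deposited peak list. The authors aligned paired-end reads to mm9 with Bowtie 1.1.2, allowed up to 2 matching places a read and discarded duplicates. Peaks were called by MACS2 2.0.10 on the merged ChIP against the merged input libraries (q below 0.01), and the final list was set by the irreproducible discovery rate. Depth of the separate libraries is not given in the sources used here. The deposited values are fold enrichment (a ratio), −log10 p and −log10 q, and a score equal to 10 times −log10 p truncated in 100% of peaks and not used further. The list is longer than the set of bound loci the study counts. The authors name a genome viewer, MIG, for filtering peaks, but the criteria are not given in the sources used here, and every peak deposited was kept. Positions were used as the authors deposited them, counted here from 1.

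Fragments and background at each summit were solved from the fold, (fragments + 1) / (background + 1), and the Poisson p. The whole number found matched −log10 p within 0.001 in 99.9% of peaks, and the solver was tested on simulated data. Summits were assigned to the nearest of 69963 TSSs of 22225 protein-coding genes (GENCODE vM1, noncoding transcripts of these genes included). Motifs were searched on both strands in windows of 101 bp read from the mm9 genome (NCBIM37), in Python 3.11.15 with pysam 0.24.0. Shares have Wilson and fragment counts exact Poisson 95% intervals. As the list is pooled, no test over samples was made, and peaks were not treated as replicates of a condition. The Wilson intervals and the interval of the median fold take peaks as separate units, although peaks of the same gene are not independent.

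The 10 genes and the lists of other genes were chosen with earlier results of these data known. Named are all 10 genes, peaks that are the strongest, nearest to a TSS or in the top 5% by fold, and genes of the lists with such a peak, with 5 or more peaks or with none. The strongest Vegfa peak and the other Kdr, Flt1, Tek and Cdh5 peaks were added after their values were seen. Alternatives were thresholds of fold (10) and −log10 q (50), other TSS sets, gene bodies with 10 kb flanks, joined peaks, and other motif and promoter windows. Some sequences and a neighbouring gene are not reported here.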

Additional observations from a re-analysis of the deposited data

How the results depend on the processing

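Of 49 alternative values for the counts, medians and shares of the 10 genes and of the 46 others, 42 stayed within the interval of the reported value or within 1.5 times its count, and 7 moved. The intervals are wide, as a composite share of 40.7% without Cdh5, against 29.7% with it, counted as within. With a fold of at least 10 the peaks fell from 37 to 22, and their median fold rose by construction, to 22.9. With a −log10 q of at least 50 there were 18, with a median of 26.0. With gene bodies and 10 kb on either side there were 20. In these settings 9, 8 and 8 of the 10 genes had a peak. The composite share was 10.8% with 25 bp on each side of the summit (19.0% of all peaks), and the share within 5 kb of a TSS was 29.7% (20.7% of all peaks). With only the most 5′ TSS of each gene, the share within 1 kb was 5.26%. The share of all peaks under that rule is not given here, so the 7.59% found with every TSS is no matched comparison.

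Chosen after seeing the data were TSSs of coding transcripts only, which moved 1 peak away from Flt1 and 1 from Tek and gave 2 to Cd34, and leaving out Cdh5, which left 27 peaks with a median fold of 15.9 and a composite share of 40.7%. No paired analysis was possible because libraries were merged before peaks were called, and leaving out a replicate was not run for the same reason. Depth limits the order of the weakest peaks, such as the 9 lower ones of Cdh5, whose intervals all overlapped.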

Other observations

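The rule of the nearest TSS left 12 peaks to neighbours for which one of the 10 genes was the next nearest. Their folds ran from 5.63 to 51.3, with a median of 10.7, and 8 of the 12 were nearest to Plxna2, the neighbour of Cd34. Of these 12, the peak closest to changing sides was at chr5:76475649-76476246, with a fold of 51.3 and 400 fragments. It was 93.5 kb from a TSS of Srd5a3 and 101.3 kb from one of Kdr, 1.08 times as far, and stood in a run of 3 summits over 16.1 kb with the Kdr peaks at −85.3 and −89.0 kb. If it were counted for Kdr, it would be the third strongest peak of that gene. At Flt4, a peak with a fold of 6.52 that was given to Scgb3a1 lay within 10 kb of the gene body.

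The nearest GATA sequence was a median of 23.5 bp from the summit in the 25 windows of the 10 genes that held one, and 16.5 bp in the 9426 such windows of the whole list. It was within 25 bp in 15 of the 25 (60.0%), against 70.2%.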
